A study of Mus musculus with 16 samples.

Results

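The 41 genes described here encode mTOR complex 1 (mTORC1) and the proteins that carry nutrient and stress signals to it, and they were measured by RNA sequencing of whole kidney from mice in which Hes1 was deleted from the renal tubule and from control mice. They were chosen by name from what their proteins are known to do, and all 41 were found by gene symbol among the 28971 genes of the count table. The genes were kept in 2 classes, 24 whose products promote mTORC1 or carry its signal onward and 17 whose products restrain it, with the 4E-BPs, which block translation until mTORC1 releases them, placed among the restraining genes.

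Hes1 is a transcriptional repressor downstream of Notch that in the collecting duct favours the principal over the intercalated cell fate. The Hes1 conditional knockout (Hes1 cKO) mice carried the Pax8-rtTA and TRE-Cre transgenes with both Hes1 alleles floxed (Hes1 f/f), so that doxycycline switched on Cre where the Pax8 promoter is active, which in the kidney is the tubular epithelium. The controls were littermates whose genotype the labels give as wild type. Both groups drank doxycycline at 1 mg/mL with 5% sucrose for 1 week from 3 weeks of age, so exposure to the drug is shared. RNA came from the whole kidney, in which glomerular, vascular, stromal and immune cells keep Hes1, and in such a mixture fewer cells of a type and less RNA per cell cannot be told apart. The results below rest on 3 Hes1 cKO and 4 control libraries. Values by library are listed in the order of library number, Hes1 cKO 1 to 3 and control 1 to 4, and these numbers are names only, because the columns could not be tied to single titled animals and their sex.

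In the textbook account, mTORC1 is a kinase complex that couples amino acids, growth factors, energy and stress to protein synthesis and autophagy. Amino acids act through the Rag GTPases, which the Ragulator scaffold holds on the lysosome and which bring mTORC1 there; GATOR1 turns them off and GATOR2 opposes GATOR1. Growth factors act through the TSC complex, which keeps the GTPase Rheb inactive until it is phosphorylated. In the kidney the pathway is known from tuberous sclerosis and Birt-Hogg-Dubé syndrome, in which loss of TSC1, TSC2 or folliculin gives renal tumours or cysts. Its activity is set largely by phosphorylation and by position at the lysosome, and transcript levels do not measure it.

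Library totals ran from 16973931 to 20420422 counts, of which the 41 genes took 0.241% to 0.262%. Hes1 was lower in every Hes1 cKO library, at 17.2 to 19.8 CPM (counts scaled to the library's size and TMM factor), than in the controls, at 42.8 to 67.6 CPM, and fell by 1.61 on the log2 scale (SE 0.16, adjusted p = 0.00357 in edgeR's quasi-likelihood test). Xist, which female cells express, was at 333 to 367 CPM in Hes1 cKO 3, control 3 and control 4 and at 0.371 CPM or less in the other 4 libraries, so it was high in 1 of 3 Hes1 cKO and in 2 of 4 control libraries. Among marker lists, 10 of 14 intercalated cell genes rose (summed level 1614 to 1724 CPM in Hes1 cKO and 590.6 to 782.7 CPM in control libraries), and of 9 tested principal cell genes, all below 0, Hsd11b2 alone fell in edgeR, while 6 of 9 were lower at an unadjusted p under 0.05 and 5 of 9 fell in DESeq2 (summed level 780.8 to 1248 and 1285 to 1939 CPM, with Avpr2 not tested and at 0 in some libraries). Globin counts and adrenal genes also varied from library to library, within both groups.

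None of the 41 genes changed by the test. All 41 had enough counts to be tested, 0 passed an adjusted p of 0.05 in edgeR, and 0 passed in DESeq2 or limma-voom, where over all genes edgeR called 53 of 15615 (0.339%, 0.32% higher and 0.0192% lower in Hes1 cKO), DESeq2 0.849% and limma-voom 0.327%. At an unadjusted p under 0.05, 2 of the 41 were found in edgeR, against 5.95% of all tested genes, and both, Nprl3 and Ddit4, are restraining genes with lower values in Hes1 cKO. The libraries of the 2 groups failed to overlap for 1 of the 41, Nprl3, against 7.01% of all tested genes (3.71% higher and 3.29% lower in Hes1 cKO). Without Hes1 cKO 1 that count came to 11 of 41 (26.8%, 5 higher and 6 lower), beside 14.8% of all tested genes, and without Hes1 cKO 3 to 6 of 41 (14.6%), beside 17.1%; without control 1 it was 4 (9.76%), beside 12.5%. With so few genes called in the whole table, a count of 0 among 41 is close to the background share.

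The fitted differences in whole-kidney RNA were small and rather tightly bounded. These bounds do not cover a change confined to a cell type that gives a small part of the RNA. On the log2 scale, Hes1 cKO minus control, 19 genes lay above 0 and 22 below, and 37 lay within 0.2 of 0. The median standard error was 0.12, against 0.14 over all tested genes and 0.12 over the 11385 tested genes in the same range of mean CPM. The 95% interval stayed within 0.5 of 0 for 35 genes, 21 promoting and 14 restraining, and within 1 for 40, Ddit4 being the exception. The promoting genes had a median of -0.02 (range -0.19 to 0.30, 10 above 0 and 14 below) and the restraining genes a median of 0.02 (range -0.56 to 0.18, 9 above 0 and 8 below), beside -0.0064 over all tested genes. Neither median stood further from 0 than the spread between libraries (SD of the class mean within groups 0.04 for promoting and 0.08 for restraining genes, log2).

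**Figure D1:**
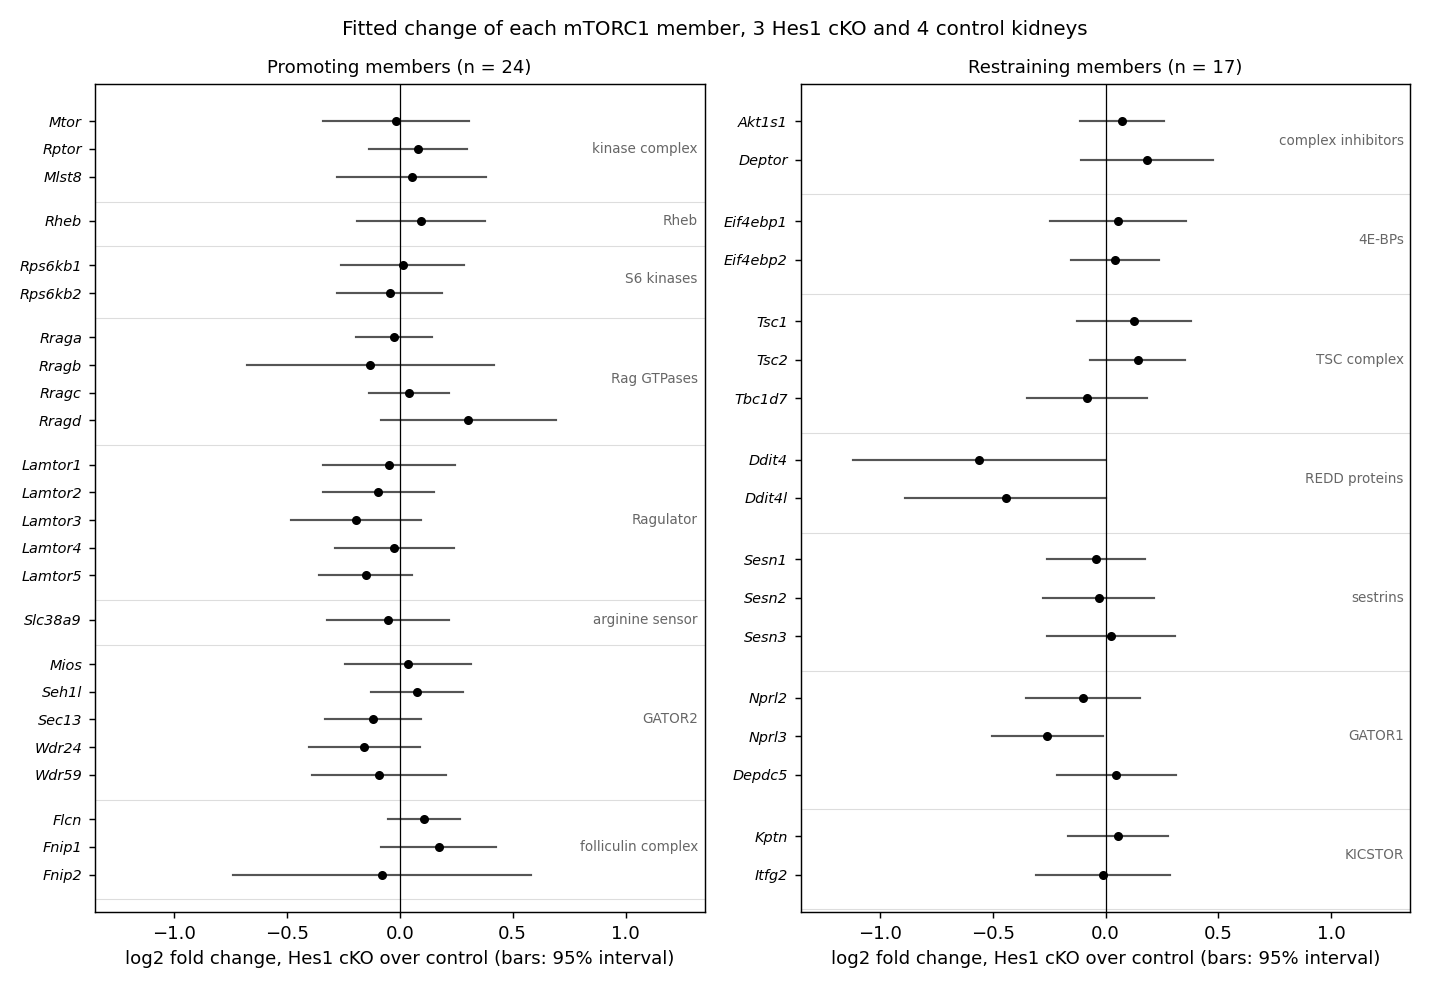
Fitted log2 difference, Hes1 cKO minus control (x axis, log2 units), for each of the 41 genes (y axis, grouped by role), with points for edgeR estimates and bars for 95% intervals, the 24 promoting genes in one panel and the 17 restraining genes in the other. Most points lie within 0.2 of 0, and the intervals of Nprl3 and Ddit4 alone leave 0 outside, by a narrow margin.

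The kinase complex itself was present at similar levels in both groups. Mtor, the catalytic subunit (chromosome 4, 148448611 to 148557683, GRCm38), was at 211, 217 and 193 CPM in the Hes1 cKO libraries, against 273, 191, 178 and 196 CPM in the controls. Control 1 was the highest of all 7 libraries and the other 3 controls lay around or below the Hes1 cKO range, so the groups overlapped. The log2 difference was -0.02 (SE 0.14, 95% interval -0.34 to 0.31, adjusted p = 0.9965 in edgeR), and it turned positive when control 1 was left out (0.14).

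Rptor, whose product raptor recruits substrates, was at 63.8, 65.0 and 63.4 CPM with Hes1 deleted and 70.2, 53.9, 58.0 and 60.0 CPM in the controls. Again control 1 was highest while the other controls lay below every Hes1 cKO library; the log2 difference was 0.08 (SE 0.10, 95% interval -0.13 to 0.30). Mlst8, the small stabilising subunit, was low throughout, at 6.805 to 9.26 CPM, with a log2 difference of 0.05. Rheb, the GTPase that switches the kinase on, was at 85.5, 99.8 and 105 CPM across the Hes1 cKO libraries, set against 72.8, 104, 93.3 and 91.7 CPM across the controls, a log2 difference of 0.10 (SE 0.13, 95% interval -0.19 to 0.38, adjusted p = 0.9747 in edgeR). Its groups overlapped, with control 1 the lowest of the 7.

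The downstream arms showed the same evenness. Rps6kb1, the S6 kinase that phosphorylates ribosomal protein S6, was at 31.1, 34.9 and 35.3 CPM in the Hes1 cKO libraries, against 30.4, 40.8, 30.7 and 31.9 CPM in the controls (log2 difference 0.01, SE 0.12, 95% interval -0.26 to 0.29). Only control 2 stood apart, above all 6 other libraries. Its paralogue Rps6kb2 had a log2 difference of -0.04. Eif4ebp1, a translation repressor that mTORC1 inactivates, was at 25.1, 30.4 and 27.9 CPM with Hes1 deleted and 21.4, 28.9, 30.6 and 26.1 CPM in the controls, a log2 difference of 0.06 (SE 0.13, 95% interval -0.25 to 0.36), with the lowest and the highest library both controls. Eif4ebp2 was the most abundant of the 41 in CPM, at 342 to 356 in Hes1 cKO and 312 to 366 in control libraries, with a log2 difference of 0.04.

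**Figure D2:**
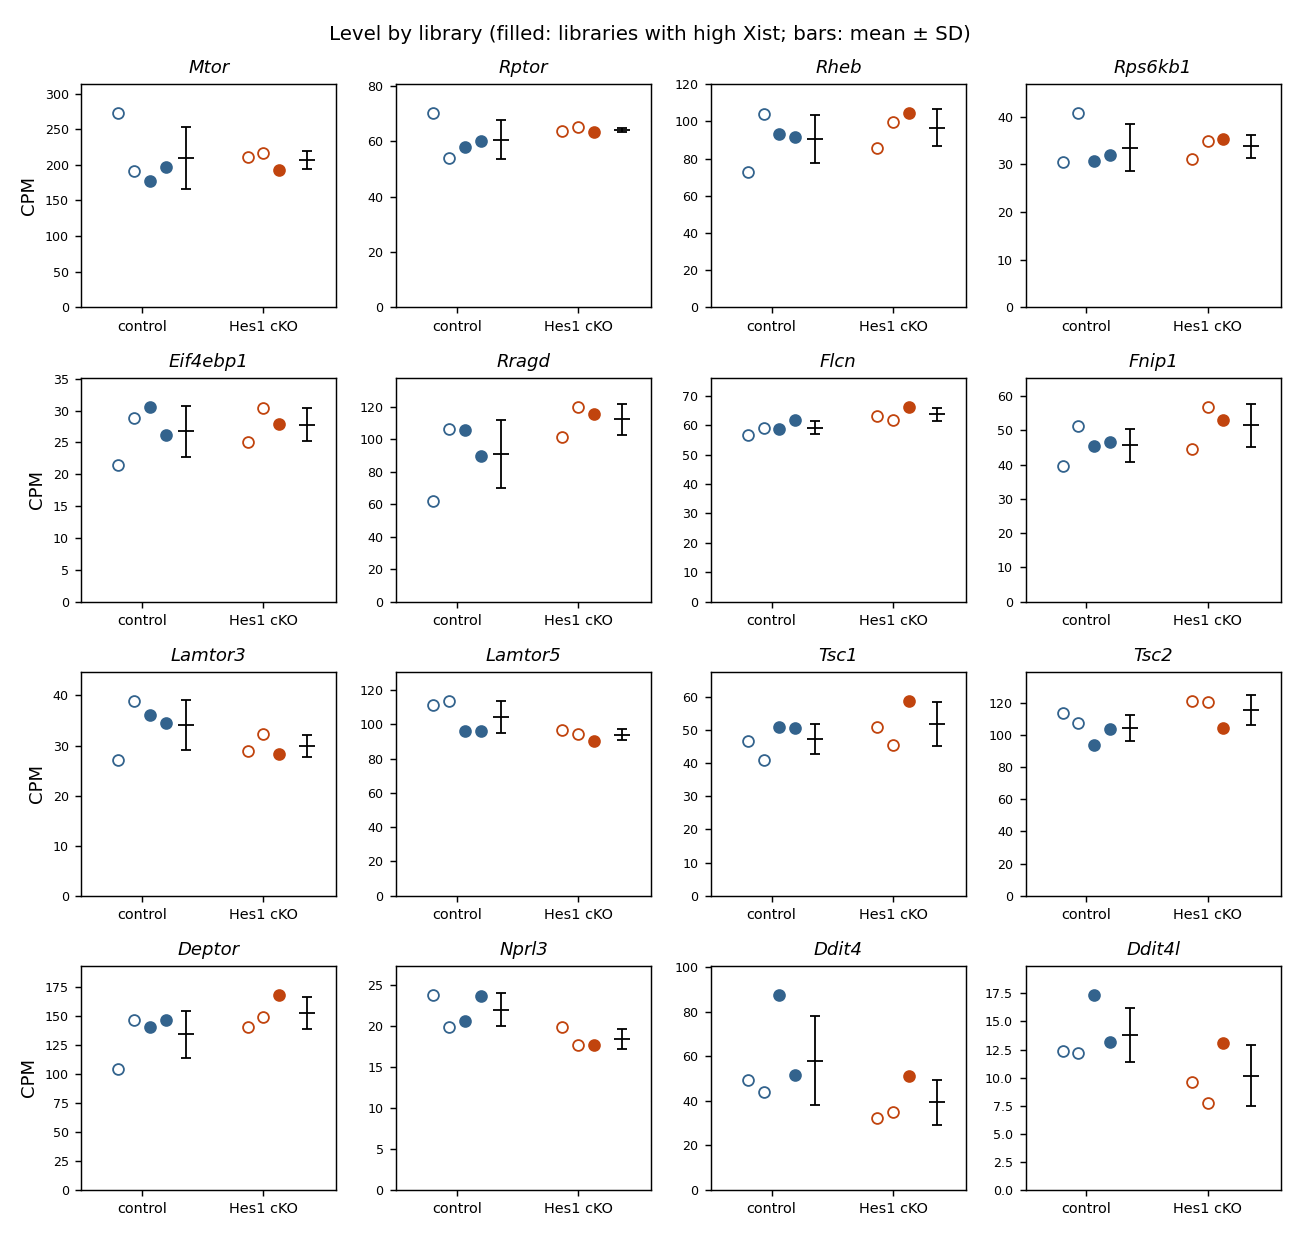
CPM in each library (y axis, linear) for 16 genes, Hes1 cKO beside control, with filled points for libraries with high Xist and bars for the group mean ± SD. The groups overlap in every panel except that of Nprl3, where the highest Hes1 cKO library (19.8 CPM) lies just under the lowest control (19.9 CPM).

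Among the amino acid branch's promoting genes, Rragd had the largest positive difference of all 41. Rragd encodes a Rag GTPase that pairs with RagA or RagB, and variants of the human gene cause an inherited salt-wasting tubulopathy; the mouse gene lies on chromosome 4, 32983037 to 33022180. It was at 101, 119.8 and 116 CPM across the Hes1 cKO libraries, set against 61.95, 106, 106 and 89.6 CPM across the controls. All 3 Hes1 cKO libraries lay above control 1 and control 4, but Hes1 cKO 1 lay below control 2 and control 3, so the groups overlapped. The log2 difference was 0.30 (SE 0.17, 95% interval -0.08 to 0.69, unadjusted p = 0.109, adjusted p = 0.928 in edgeR) and came to 0.16 without control 1. Control 1 also had the lowest summed level of intercalated cell genes (590.6 CPM) and of thick ascending limb genes (6726 CPM). Its summed level of proximal tubule genes was the highest (12800 CPM). The part of cell makeup in Rragd was not tested.

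The other Rag genes differed less. The log2 difference was -0.02 for Rraga, 0.04 for Rragc and -0.13 for the X-linked Rragb. Rragb was the rarest of the 41 in CPM, at 2.92 to 4.35 in Hes1 cKO and 2.92 to 5.02 in control libraries, and its interval was correspondingly wide (-0.68 to 0.42).

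The Ragulator genes, which anchor the Rags to the lysosome, all lay slightly below 0, 5 of 5, with a median log2 difference of -0.09, and 0 of 5 changed by the test. Lamtor3 was at 28.9, 32.4 and 28.3 CPM in the Hes1 cKO libraries, against 27.1, 38.9, 36.1 and 34.5 CPM in the controls. Control 1 was the lowest of the 7 and the other 3 controls were all above the Hes1 cKO libraries. The log2 difference of Lamtor3 was -0.19 (SE 0.13, 95% interval -0.48 to 0.10, adjusted p = 0.940 in edgeR) and -0.29 without control 1, where its adjusted p was 0.663. Lamtor5 was at 97.0, 94.2 and 90.6 CPM with Hes1 deleted and 112, 114, 96.2 and 95.9 CPM in the controls, so that only Hes1 cKO 1 reached the control range. Its log2 difference was -0.15 (SE 0.09, 95% interval -0.36 to 0.05, unadjusted p = 0.132 in edgeR), and with Xist as a covariate the unadjusted p was 0.047 and the adjusted p 0.682. In that edgeR fit the unadjusted p was smaller still for Ddit4 (0.0199), Ddit4l (0.0250) and Nprl3 (0.0417), with adjusted p of 0.600 to 0.662. Lamtor1, Lamtor2 and Lamtor4 had log2 differences of -0.05, -0.09 and -0.02.

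GATOR2, which relieves the brake that GATOR1 puts on the Rags, gave 2 genes above 0 and 3 below, with 0 of 5 called. Wdr24 was at 39.1, 32.8 and 31.5 CPM across the Hes1 cKO libraries, set against 40.8, 35.5, 35.7 and 41.7 CPM across the controls (log2 difference -0.16, SE 0.11, 95% interval -0.40 to 0.09). Hes1 cKO 1 lay among the controls, while the other 2 Hes1 cKO libraries lay below all of them. The remaining log2 differences were -0.12 for Sec13, -0.09 for Wdr59, 0.08 for Seh1l and 0.04 for Mios, where Sec13 and Seh1l also serve the nuclear pore. Slc38a9, the lysosomal transporter that senses arginine, differed by -0.05.

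The folliculin complex acts on RagC and RagD so that mTORC1 can reach some of its substrates. Flcn was at 63.2, 61.8 and 66.2 CPM in the Hes1 cKO libraries, against 56.7, 59.1, 58.7 and 61.9 CPM in the controls, the steadiest of the 41 within groups (SD of log2 values 0.05). Only control 4 and Hes1 cKO 2 broke the separation of the groups, by 61.8 against 61.9 CPM. Its log2 difference was 0.11 (SE 0.07, 95% interval -0.05 to 0.27), with p = 0.0857 in the exact two-sided permutation test over 35 splits, whose smallest possible value is 0.0286. Fnip1, a folliculin partner, was at 44.6, 56.9 and 52.99 CPM with Hes1 deleted and 39.6, 51.2, 45.3 and 46.5 CPM in the controls, a log2 difference of 0.17 (SE 0.11, 95% interval -0.08 to 0.43, adjusted p = 0.940 in edgeR). Hes1 cKO 1 lay within the control range and the other 2 Hes1 cKO libraries above it.

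Fnip2, the second folliculin partner (chromosome 3, 79455974 to 79567796), followed Xist rather than the Hes1 genotype; it was singled out after its values were seen. It was at 48.2, 50.1 and 98.6 CPM across the Hes1 cKO libraries, set against 48.5, 54.1, 92.0 and 82.2 CPM across the controls. The 3 libraries with high Xist held 82.2 to 98.6 CPM and the 4 with low Xist 48.2 to 54.1 CPM, with no overlap. By genotype the log2 difference was -0.08 (SE 0.29, 95% interval -0.74 to 0.58), and with Xist in the fit it was 0.04. That fit was made as an alternative, and its Xist term was read after the values were seen. Between the mean log2 Xist levels of the high-Xist and low-Xist libraries, Fnip2 differed by 0.86 on the log2 scale (adjusted p = 0.00184 in edgeR). It was the only one of the 41 called for that term, beside 1.31% of all tested genes, and 0 of 41 were called for genotype in the same fit, beside 0.423%.

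**Figure D3:**
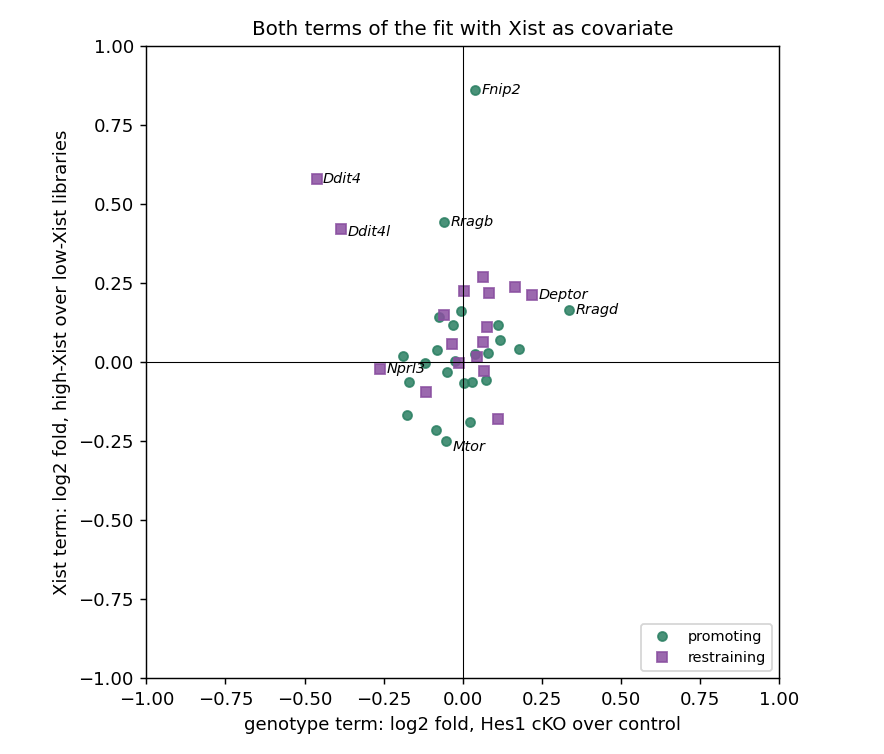
Genotype term (x axis, log2) and Xist term (y axis, log2 over the span between the mean log2 Xist levels of the low-Xist and high-Xist libraries) of the edgeR fit with both, 1 point per gene, with circles for promoting and squares for restraining genes. Fnip2 stands at the top with an Xist term of 0.86 and a genotype term of 0.04, and Ddit4 has the second largest Xist term, 0.58 (adjusted p = 0.164).

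Of the restraining genes, the inhibitors bound to the complex and the TSC genes had slightly positive or near-zero differences. Akt1s1, which encodes the inhibitory subunit PRAS40, was at 122 to 126 CPM in Hes1 cKO and 110.4 to 128 CPM in control libraries, a log2 difference of 0.07. Deptor, an inhibitor of both mTOR complexes (chromosome 15, 55112317 to 55259271), was at 141, 149 and 168 CPM in the Hes1 cKO libraries, against 104, 146, 141 and 146 CPM in the controls. Control 1 was far below the other 6 libraries, and Hes1 cKO 3 was the highest. The log2 difference was 0.18 (SE 0.13, 95% interval -0.11 to 0.47, adjusted p = 0.942 in edgeR), and 0.08 without control 1.

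Tsc1, which encodes hamartin, was at 50.8, 45.6 and 58.8 CPM with Hes1 deleted and 46.8, 41.0, 50.9 and 50.7 CPM in the controls (log2 difference 0.13, SE 0.11, 95% interval -0.12 to 0.38). The groups overlapped, with the highest library a Hes1 cKO and the lowest a control. Tsc2, which encodes tuberin, the subunit that acts on Rheb, was at 121, 120.5 and 104.5 CPM across the Hes1 cKO libraries, set against 114, 107, 94.0 and 104 CPM across the controls. Its log2 difference was 0.14 (SE 0.09, 95% interval -0.07 to 0.35), and 2 Hes1 cKO libraries lay above every control. The exons of Tsc2 overlap those of Pkd1 on the opposite strand over 7.20% of their length, and reads from such a stretch cannot be told apart unless strand was used in counting. Tbc1d7, the third TSC subunit, had a log2 difference of -0.08.

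The REDD genes, which hold mTORC1 down in hypoxia, energy stress and glucocorticoid exposure, had the 2 most negative differences of the 41. Ddit4 (REDD1; chromosome 10, 59949669 to 59951834) was at 32.2, 35.01 and 50.9 CPM in the Hes1 cKO libraries, against 49.2, 43.9, 87.4 and 51.5 CPM in the controls. Hes1 cKO 1 and 2 were below every control, Hes1 cKO 3 lay within the control range, and control 3 was far above the rest. Means were 39.4 ± 10.1 CPM (SD, n = 3) and 58.0 ± 19.8 CPM (SD, n = 4). The log2 difference was -0.56 (SE 0.25, 95% interval -1.12 to -0.0016, unadjusted p = 0.0495 and adjusted p = 0.840 in edgeR), and the exact permutation test gave p = 0.171. Among libraries of like Xist level the log2 ratio was -0.47 where Xist was low (Hes1 cKO 1 and 2, control 1 and 2). Where Xist was high it was -0.45, from Hes1 cKO 3 alone against control 3 and control 4. Of these controls, control 4 was close to Hes1 cKO 3 (51.5 and 50.9 CPM) and control 3 was at 87.4 CPM. Leaving out control 3 brought the difference to -0.29 and leaving out Hes1 cKO 3 to -0.79.

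Ddit4l (REDD2) followed much the same order of libraries at a lower level, 9.63, 7.76 and 13.1 CPM with Hes1 deleted and 12.4, 12.2, 17.3 and 13.2 CPM in the controls. Its log2 difference was -0.44 (SE 0.20, 95% interval -0.89 to 0.0039, unadjusted p = 0.0517 and adjusted p = 0.841 in edgeR). Hes1 cKO 3 lay within the control range and the other 2 Hes1 cKO libraries below it. The log2 ratio of Ddit4l was -0.50 among the low-Xist libraries and -0.22 among the high-Xist libraries. The summed level of principal cell genes was 931.3, 780.8 and 1248 CPM across the Hes1 cKO libraries. Across the controls it was 1515, 1285, 1939 and 1723 CPM. Like both REDD genes, it was highest in control 3 and, within Hes1 cKO, in Hes1 cKO 3. Unlike them, it was below every control in Hes1 cKO 3. The distal convoluted tubule list was also highest in control 3 (1329 CPM) and, within Hes1 cKO, in Hes1 cKO 3 (1068 CPM). The part of cell makeup in the REDD genes was not tested. Of lists of genes that answer to the same signals as Ddit4, the glucocorticoid list had 0 of 8 called and 5 above 0 (median 0.02). The p53 list had 0 of 9 called and 8 above 0 (median 0.14). The FoxO list had 0 of 8 called and 5 below 0 (median -0.13). Immediate early genes had 0 of 8 called and 7 of 8 below 0 (median -0.16). Their summed level, like the level of Ddit4, was lowest in Hes1 cKO 1 (501.6 CPM) and highest in control 3 (849.3 CPM). In Hes1 cKO 2, however, their sum was 779.1 CPM, above control 1 (524.1 CPM) and control 2 (601.9 CPM), where Ddit4 was below both. The clock list had 0 of 11 called, with 7 below 0 and a median of -0.03. What these lists share with Ddit4 was not tested.

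GATOR1, which switches RagA and RagB off, included the 1 gene whose groups did not overlap. Nprl3 (chromosome 11, 32225628 to 32267707) was at 19.8, 17.7 and 17.7 CPM in the Hes1 cKO libraries, against 23.8, 19.9, 20.6 and 23.7 CPM in the controls. The separation rests on Hes1 cKO 1 and control 2, at 19.84 and 19.91 CPM. Means were 18.4 ± 1.25 CPM (SD, n = 3) and 22.0 ± 2.01 CPM (SD, n = 4), a log2 difference of -0.26 (SE 0.11, 95% interval -0.50 to -0.01, unadjusted p = 0.0409 and adjusted p = 0.805 in edgeR; exact permutation p = 0.0571). The separation was lost with total counts in place of TMM and with a filter on mean CPM. Nprl3 overlaps Mpg on the opposite strand over 17.7% of its exon length; Mpg itself was at 2.36 to 4.37 CPM with a log2 difference of 0.09. Introns of Nprl3 are known to hold enhancers of the neighbouring alpha-globin genes, and Hba-a1 was at 265, 366 and 181 CPM with Hes1 deleted and 371, 896, 416 and 186 CPM in the controls. Hba-a1 was thus lower in the Hes1 cKO mean as Nprl3 was, but within the controls its highest library, control 2, had the lowest Nprl3, and any link between them was not tested. The other GATOR1 genes, Nprl2 and Depdc5, had log2 differences of -0.10 and 0.05.

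The sestrins and KICSTOR, which act through GATOR2 and GATOR1, were even between the groups. Sesn2, which binds leucine, was at 37.7, 34.6 and 43.5 CPM across the Hes1 cKO libraries, set against 38.0, 35.4, 43.5 and 40.7 CPM across the controls, nearly the same range in each group (log2 difference -0.03, 95% interval -0.28 to 0.21). Sesn1 and Sesn3 differed by -0.04 and 0.02, and the KICSTOR genes Kptn and Itfg2 by 0.06 and -0.01.

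The sequences before the transcription starts of 4 genes are shown because Nprl3, Ddit4 and Rragd gave the largest differences of GATOR1, the REDD genes and the Rags, and because Lamtor4 carries the CACGTG core of the element bound by the lysosomal factors TFEB and TFE3 at 2 places, as the window of Rragb also does. They are RefSeq promoter sequence in GRCm38.p6, 5′ to 3′ on the strand of the gene, with every match to a searched motif in capitals. The motifs were CACNAG and CACGCG on both strands, the N-box and class C forms bound by Hes-family repressors, and CACGTG, which reads the same on both strands. Nprl3 is at chr11:32267708-32267957 on the minus strand, Ddit4 at chr10:59951835-59952020 on the minus strand (the stretch that ends 65 bases before its start), Rragd at chr4:32982748-32982997 on the plus strand and Lamtor4 at chr5:138255232-138255481 on the plus strand.
Nprl3: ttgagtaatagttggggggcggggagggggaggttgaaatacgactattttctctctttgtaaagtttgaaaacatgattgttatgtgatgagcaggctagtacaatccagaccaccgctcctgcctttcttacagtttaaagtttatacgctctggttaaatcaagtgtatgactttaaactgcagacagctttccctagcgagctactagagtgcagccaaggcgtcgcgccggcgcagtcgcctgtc
Ddit4: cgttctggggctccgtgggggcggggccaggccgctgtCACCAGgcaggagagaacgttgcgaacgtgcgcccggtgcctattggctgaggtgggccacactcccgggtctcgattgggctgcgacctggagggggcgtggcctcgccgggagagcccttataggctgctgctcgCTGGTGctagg
Rragd: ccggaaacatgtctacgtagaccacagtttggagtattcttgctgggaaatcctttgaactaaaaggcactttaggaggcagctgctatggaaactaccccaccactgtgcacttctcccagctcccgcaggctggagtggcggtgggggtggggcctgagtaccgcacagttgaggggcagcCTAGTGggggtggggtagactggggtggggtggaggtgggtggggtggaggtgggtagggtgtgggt
Lamtor4: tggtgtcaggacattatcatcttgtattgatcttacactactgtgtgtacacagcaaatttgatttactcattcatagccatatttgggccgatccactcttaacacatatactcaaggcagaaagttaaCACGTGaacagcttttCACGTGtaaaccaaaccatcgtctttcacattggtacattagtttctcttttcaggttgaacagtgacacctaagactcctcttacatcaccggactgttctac

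A match is a string of letters and not a site shown to be bound. The sets of windows compared here were not matched for base composition, and no test was run on the shares. The 250 bases before the start were available for 35 of the 41 genes, in 36 windows, and not for Rps6kb2, Seh1l, Wdr24, Lamtor3, Eif4ebp1 and Deptor. CACNAG was in 9 windows (25%), against 36.7% of the 32851 RefSeq windows of all genes, and CACGCG in 6 (16.7%, against 7.62%). CACGTG was in 7 windows (19.4%, against 6.02%), those of Fnip1, Lamtor1, Lamtor4, Rheb, Rragb, Rragc and Tbc1d7. The log2 differences of those 7 genes ran from -0.13 for Rragb to 0.17 for Fnip1.

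Per length of transcript, the 41 genes spanned a wide range of levels. In CPM per kilobase of merged exon, which allows genes to be set side by side, the mean over 7 libraries ran from 0.696 for Slc38a9 to 112.9 for Lamtor5. Eif4ebp2 (59.6), Lamtor2 (56.4), Rraga (42.8), Lamtor4 (42.7) and Akt1s1 (39.3) followed Lamtor5, and Rragb (1.61), Mlst8 (1.83) and Depdc5 (2.09) were next to the bottom. Subunits of one complex were far from equal: Mtor stood at 20.6, Rptor at 4.61 and Mlst8 at 1.83 CPM per kilobase, and within Ragulator Lamtor3 stood at 7.79 against 25.9 for Lamtor1. Mlst8, Rps6kb2 and Lamtor1 share 22.5%, 23.7% and 18.7% of their exon length with genes on the opposite strand, so their levels could include reads of those genes. Merged exons include those of long minor isoforms, so a gene with many isoforms is set too low on this scale.

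Some paralogues were far apart in level and others overlapped. Rraga ranged from 39.5 to 45.1 CPM per kilobase over the 7 libraries and Rragb from 1.29 to 2.22, whereas Rragc (18.8 to 21.5) and Rragd (12.0 to 23.1) overlapped, with the mean of Rragd above that of Rragc in Hes1 cKO (21.7 and 20.3) and below it in control (17.6 and 19.8). Eif4ebp2 (53.9 to 63.4) stood above Eif4ebp1 (9.74 to 13.9) in every library. Sesn2 (9.95 to 12.5) stood above Sesn3 (4.73 to 6.39) and Sesn1 (4.52 to 5.17), which overlapped each other. Fnip1 (5.57 to 7.99) and Fnip2 (5.77 to 11.8) overlapped, as did Rps6kb2 (4.14 to 5.11) and Rps6kb1 (3.51 to 4.71).

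**Figure D4:**
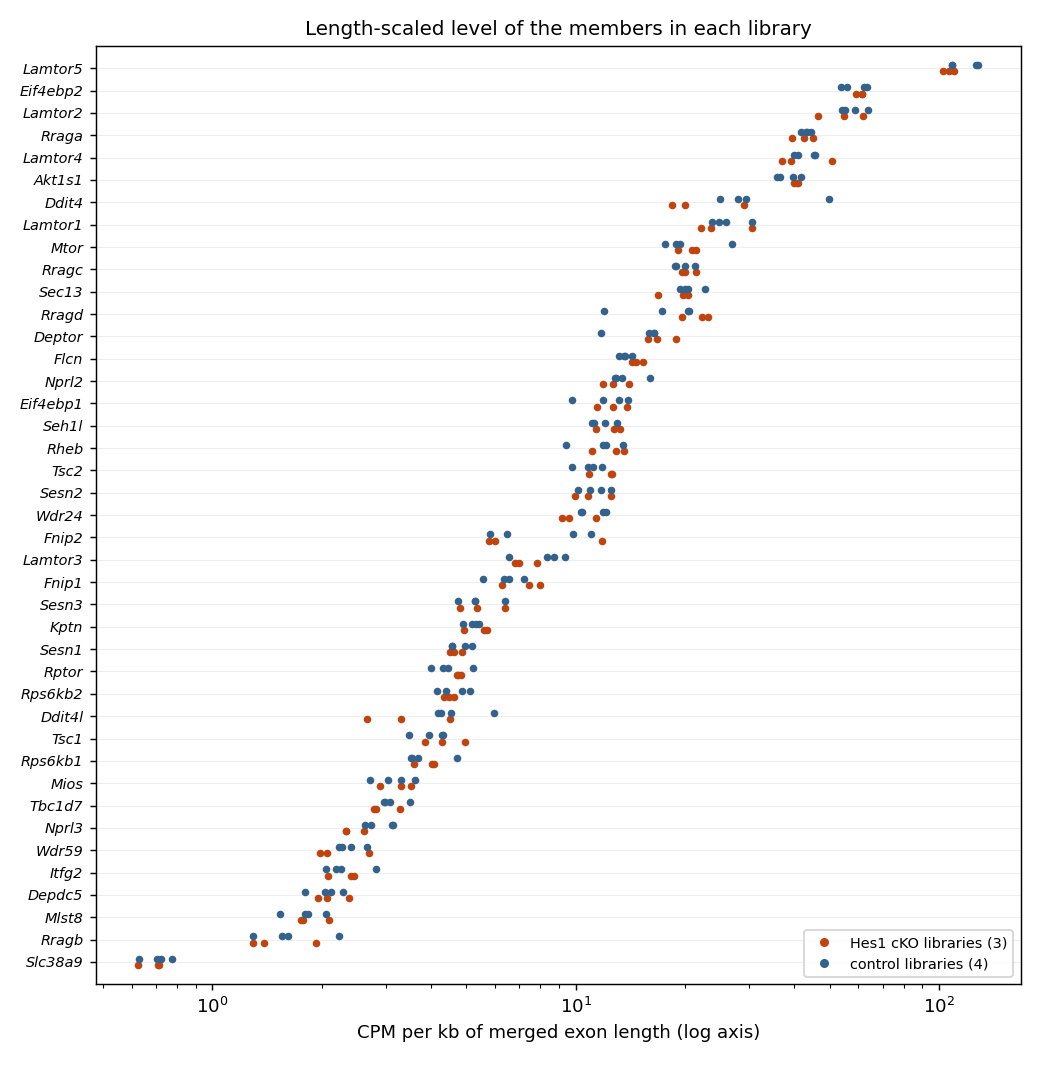
CPM per kilobase of merged exon (logarithmic axis) in each of the 7 libraries for the 41 genes, ordered by mean. Lamtor5 is at the top (mean 112.9) and Slc38a9 at the bottom (mean 0.696), and points of the 2 groups lie together along the whole range.

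The spread within groups was that of other genes at like levels. The SD of log2 values within groups had a median of 0.144 over the 41 genes and 0.151 over tested genes in their range of mean CPM, and 20 of the 41 were above the latter. Flcn had the smallest (0.0504) and Fnip2 the largest (0.499), followed by Ddit4 (0.40). Summed over the 41 genes, the level was 2466, 2483 and 2613 CPM in the Hes1 cKO libraries, against 2491, 2448, 2515 and 2511 CPM in the controls, with the highest library in one group and the lowest in the other and the rest interleaved. The promoting genes summed to 1359, 1385 and 1431 CPM in Hes1 cKO and 1394, 1399, 1386 and 1366 CPM in control libraries. The restraining genes summed to 1107, 1098 and 1182 CPM in Hes1 cKO and 1097, 1050, 1129 and 1145 CPM in control libraries.

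Genes upstream and downstream of these 41 were read from lists of the pathway. Of 20 genes of growth factor input, 16 lay above 0 (median 0.09), beside 7564 of all 15615 tested genes. In this list 2 rose and 0 fell, where 0.32% of all tested genes rose and 0.0192% fell. The list was chosen with earlier results of these data known. Irs1, an adaptor of the insulin receptor, was at 32.1, 32.9 and 29.1 CPM with Hes1 deleted and 19.3, 16.2, 18.5 and 19.7 CPM in the controls, with no overlap, and rose by 0.77 on the log2 scale (SE 0.10, adjusted p = 0.0164 in edgeR). Insrr, the insulin receptor-related receptor of intercalated cells, rose by 1.79 (adjusted p = 6.3e-04 in edgeR). Intercalated cell genes, a list that includes Insrr itself, rose in the same libraries, and the part of these cells in Irs1 and Insrr was not tested.

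The other lists had 0 genes called. Among 13 tested genes of amino acid and lysosome input outside the 41 (median 0.03), the leucine transporter gene Slc7a5 was at 17.4, 17.9 and 16.1 CPM across the Hes1 cKO libraries, set against 13.7, 13.5, 14.1 and 12.7 CPM across the controls, which do not overlap; its log2 difference was 0.35 (unadjusted p = 0.00623, adjusted p = 0.512 in edgeR). In the same list, Slc1a5, a glutamine transporter gene, differed by 0.54 (adjusted p = 0.512 in edgeR), with overlap. Rnf152, which encodes a ubiquitin ligase for RagA, differed by 0.32 (adjusted p = 0.542 in edgeR), without overlap. On the other side, Slc3a2, which encodes the partner chain of Slc7a5, was lower in every Hes1 cKO library (326, 348 and 363 CPM) than in any control (370 to 428 CPM), with a log2 difference of -0.20 (unadjusted p = 0.0515 in edgeR), and Slc36a4 was likewise lower without overlap (-0.24, unadjusted p = 0.051 in edgeR). Both were singled out after their values were seen. Grb10, a substrate of mTORC1 that damps insulin signalling, was at 49.6, 64.8 and 59.6 CPM in the Hes1 cKO libraries, against 40.7, 46.4, 41.9 and 48.0 CPM in the controls, a log2 difference of 0.39 (SE 0.11, adjusted p = 0.497 in edgeR), with no overlap. Its list, substrates and translation output, had 21 tested genes and a median of 0.04. The medians were 0.01 for 16 genes of energy sensing, -0.0071 for 11 of mTORC2 and kinase assembly, 0.0018 for 21 transcripts known to respond to mTORC1 and 0.02 for 12 lysosomal and TFE target genes. In the mTORC2 list Prkca was at 26.9, 22.55 and 23.4 CPM in Hes1 cKO and 18.9, 15.8, 19.8 and 18.6 CPM in control libraries, without overlap. Its log2 difference was 0.41 (unadjusted p = 0.00534, adjusted p = 0.499 in edgeR).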

How the data were processed

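Gene counts per library were deposited by the authors as whole numbers, not normalized; per the submitters' processing notes STAR, FastQC, DESeq2 and mm10 (GRCm38) were used, while for the gene annotation, counting program and strand setting no source used here gives an entry. Reads were 150 bp paired, per the labels' protocols. The titles name 7 Hes1 cKO and 9 control samples, whereas the series text gives these sizes the other way round. By the labels 3 Hes1 cKO samples are male and 4 female, and 6 controls are male and 3 female. The 3 and 4 columns used here carry the group and numbers that the labels do not tie to a titled sample. Low and high Xist in these columns follow the order of the sexes in the first 3 Hes1 cKO and first 4 control titles. That match was not used to assign columns to samples. A further 9 sample columns were left aside. The labels do not say that each library came from a separate animal, so p-values measure the spread between these libraries, which may in part be technical. Each group held libraries with high and with low Xist, so the libraries of a group did not all come from 1 animal. Libraries of a group correlated at 0.979 to 0.992 (log2 CPM) and differed by more than counting noise (chi-square per degree of freedom 11.9 to 41.0).

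The members and lists were chosen with earlier results of these data known. Of 28971 genes, 15615 passed filterByExpr (minimum count 10); 4690 had no symbol. edgeR 4.0.16 was fitted to both groups with TMM factors and no covariate, and p-values were adjusted by Benjamini-Hochberg over all tested genes, with a threshold of 0.05. Single genes were also compared by an exact two-sided permutation test of log2(CPM + 1) over 35 splits. DESeq2 1.42.0, limma 3.58.1 (voom), other scalings and filters, a Xist covariate and leaving out each library were the alternatives. The edgeR fit was tried on counts simulated from its own dispersion estimates, and the other steps were not. Values per library are printed for members at an unadjusted p under 0.05, for the 3 largest differences in each direction and class, and for 12 genes chosen by role. Exon lengths and positions come from GENCODE M21 (GRCm38), in which 28883 gene IDs were found.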

Additional observations from a re-analysis of the deposited data

Results flagged for a closer look

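In 2 of the 41 genes, 1 control library stood far from the other 3, by the ratio of its gap to the range of the group (Dixon's ratio, past its 95% critical value). For Deptor control 1 was low, at 104 CPM against 141 to 146 CPM in the other controls, with a ratio of 0.876. For Rps6kb1 control 2 was high, at 40.8 CPM against 30.4 to 31.9 CPM, with a ratio of 0.858. Chance alone flags about 1 in 20 groups, and 41 control groups were tested; the Hes1 cKO group, with 3 libraries, was not. Control 1 held the highest or the lowest control value for 26 of the 41 genes, control 2 for 24, control 3 for 15 and control 4 for 17.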

How the results depend on the processing

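In every alternative 0 promoting and 0 restraining genes were called, and the lowest adjusted p of any of the 41 was 0.470 (Ddit4l, without Hes1 cKO 3). Hes1 stayed called in all 14 alternatives. Over all genes 53 were called, against 130 with DESeq2 and 102 without a low-count filter, both of which include those 53, and 25 (without Hes1 cKO 2) to 47 with a library left out (27 without Hes1 cKO 1). The median of the promoting genes ranged from -0.03 to 0.01 and that of the restraining genes from -0.04 to 0.05, so their sign is not fixed. The sign of 5 named genes turned: Mtor with voom (0.0014), total counts (0.0016) and libraries left out (-0.087 to 0.14); Fnip2 (0.039) and Sesn2 (0.0054) with the Xist covariate; and, with libraries left out, Fnip2 (-0.49 to 0.10), Sesn2 (-0.13 to 0.043), Eif4ebp1 (-0.037 to 0.13) and Rps6kb1 (-0.030 to 0.12). Groups that did not overlap numbered 0 promoting genes, 1 without the filter and 0 to 7 with a library left out, and 1 restraining gene, 0 with total counts, 0 with a minimum mean CPM of 1 and 1 to 5 with a library left out, while over all tested genes the share went from 7.01% to between 10% and 17.1% with a library left out. The highest counts came without Hes1 cKO 1 (7 promoting) and without Hes1 cKO 3 (5 restraining). The cause of these shifts was not tested. With 3 against 4 libraries the intervals bound the difference within 0.5 on the log2 scale for 35 genes and not for the other 6. No paired analysis was possible because the columns do not carry the replicate numbers of the titles, and for the same reason sex from the labels was not run as a covariate.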
